A study of Mus musculus with 24 samples.

Results

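The 51 genes described here encode proteins of the cytosolic ribosome and lie on mouse autosomes. They were taken by name, 31 of the large subunit (Rpl genes) and 20 of the small subunit (Rps genes), from 21883 protein-coding genes. For each, the length of DNA covered by peaks was measured over the gene and its flanks of 10 kb (the window) and within 2.5 kb of the 2 gene ends (the ends). The rule uses no measured value of these data, though the list was proposed with results of them known. A further 26 autosomal cytosolic ribosomal protein genes were not among the names given, and their values stand beside those of the members near the end.

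The peaks come from chromatin immunoprecipitation with sequencing (ChIP-seq) of mouse small cell lung cancer lines. In lines 159-1 and 1014 the tumour of origin carried a control guide RNA (sgControl, the control lines), and in lines 236L and 236R one that targets Kdm6a (sgKdm6a, the mutant lines). All 4 lines share the RPP background, a lung tumour model with engineered loss of Rb1, Trp53 and Rbl2, and were kept at early passage in HITES medium on ultra-low attachment plates without treatment. Each line has a peak list for 3 histone marks, H3K4me2, H3K4me1 and H3K27me3, and each control line has one for the KDM6A protein itself, 14 lists in all. The samples include KDM6A ChIP for the control lines alone, so the loss of the protein in the mutant lines was not checked. Nothing in the labels states that the 2 mutant lines are of different animals, and p-values measure only the spread between these lines.

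Ribosomal protein genes are among the most highly transcribed housekeeping genes of a growing cell, and their products are made in equal amounts to build the large and small ribosomal subunits. H3K4me2 and H3K4me1 are methyl marks of active chromatin: active promoters carry more heavily methylated H3K4 around the start, flanked by H3K4me1, which also marks enhancers. H3K27me3 is the mark laid down by Polycomb repressive complexes at silent genes. KDM6A (UTX) removes H3K27me3 and is part of the KMT2C and KMT2D complexes, which deposit H3K4me1.

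The members were short genes, from 0.982 to 9.647 kb with a median of 3.27 kb, against 17.2 kb over all genes. The regions at both ends therefore run together in the 40 members under 5 kb. In 45 of the 51 the window also held another protein-coding gene, and in 24 the regions at the ends held the end of another gene, so part of the cover can belong to a neighbour. No member's window overlapped that of another member. A gene was called higher when the lower mutant line exceeded the higher control line by at least 2 kb in the window or 1 kb at the ends, and lower in the reverse case. With 2 lines against 2 the smallest two-sided exact permutation p is 0.333, so no difference between genotypes can pass a threshold of 0.05, and calls describe these 4 lines.

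The lists differed in length. They covered 109 to 135 Mb for H3K4me1, 73.7 to 87.6 Mb for H3K4me2, 13.8 to 110 Mb for H3K27me3, and 34.6 and 27.02 Mb for KDM6A in 159-1 and 1014. They carry no read counts, so the depth is unknown. For H3K4me2 the deposited names of the lists of 159-1 and 1014 are exchanged against the sample labels. The labels are followed here, and values set against another list of the same control line are given both ways. Line 236L stood apart. H3K4me2 lay at the ends of 12 of 12 macrophage marker genes there, with a summed cover of 59.3 kb, against 5 to 6 of 12 and 6.03 to 10.6 kb in the other 3 lines. Adgre1, Fcer1g, Itgam, Mrc1 and Tyrobp were at 0 in each of those 3 lines. At fibroblast and endothelial marker genes both mutant lines were higher, with 5.83, 7.81, 12.8 and 13.2 kb in 159-1, 1014, 236L and 236R. T and B cell marker genes had 5.72, 4.47, 8.31 and 5.43 kb. Neuroendocrine marker genes of small cell lung cancer had H3K4me2 at their ends in 15 of 15 in every line. Their summed cover was 52.6 kb in 236L, against 74.0 kb in 159-1, 80.1 kb in 1014 and 73.8 kb in 236R. H3K27me3 lay at the ends of 12 of these 15 in 236L against 1 of 15 in each other line.

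The letters before the starts of 8 members are shown because these genes are named in the results below. Whether the letters go with any mark or with KDM6A was not tested. Rpl5, Rps23, Rpl15, Rpl4 and Rpl26 had H3K4me1 values in 236L and 236R above those of the controls, Rps27 and Rps13 lacked a KDM6A peak in a control line, and Rpl13a had the most KDM6A. These 8 were picked after their values were seen. The sequences are those of RefSeq on GRCm38.p6, from 140 bases before the transcript start through the first 15 bases of the transcript, read 5′ to 3′ on the gene's strand. Capitals mark matches to the motifs given in the next paragraph that lie within the printed letters.
Rpl5 (chr5:107900388-107900542, plus strand): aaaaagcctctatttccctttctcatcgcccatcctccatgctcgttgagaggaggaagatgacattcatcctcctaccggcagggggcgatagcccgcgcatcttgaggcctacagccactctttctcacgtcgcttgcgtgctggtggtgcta
Rps23 (chr13:90922982-90923136, plus strand): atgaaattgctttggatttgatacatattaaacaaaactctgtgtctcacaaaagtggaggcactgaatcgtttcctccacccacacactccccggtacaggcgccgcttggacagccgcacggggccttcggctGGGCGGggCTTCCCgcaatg
Rpl15 (chr14:18270972-18271126, minus strand): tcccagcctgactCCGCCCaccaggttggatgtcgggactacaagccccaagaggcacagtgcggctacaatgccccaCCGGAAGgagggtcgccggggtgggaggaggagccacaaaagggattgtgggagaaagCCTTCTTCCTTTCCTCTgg
Rpl4 (chr9:64173247-64173401, plus strand): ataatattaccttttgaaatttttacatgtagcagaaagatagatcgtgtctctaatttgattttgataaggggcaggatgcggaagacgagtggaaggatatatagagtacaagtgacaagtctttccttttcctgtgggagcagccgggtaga
Rpl26 (chr11:68901426-68901580, plus strand): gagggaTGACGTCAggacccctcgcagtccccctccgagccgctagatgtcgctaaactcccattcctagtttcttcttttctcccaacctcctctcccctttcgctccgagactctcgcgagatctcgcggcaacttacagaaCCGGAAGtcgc
Rps27 (chr3:90213634-90213788, minus strand): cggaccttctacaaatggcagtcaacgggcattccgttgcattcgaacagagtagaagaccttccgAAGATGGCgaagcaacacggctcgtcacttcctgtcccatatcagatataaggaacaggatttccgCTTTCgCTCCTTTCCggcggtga
Rps13 (chr7:116334176-116334330, minus strand): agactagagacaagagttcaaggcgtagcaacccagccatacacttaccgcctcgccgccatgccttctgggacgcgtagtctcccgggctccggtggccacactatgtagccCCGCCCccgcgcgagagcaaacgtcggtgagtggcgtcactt
Rpl13a (chr7:45128731-45128885, minus strand): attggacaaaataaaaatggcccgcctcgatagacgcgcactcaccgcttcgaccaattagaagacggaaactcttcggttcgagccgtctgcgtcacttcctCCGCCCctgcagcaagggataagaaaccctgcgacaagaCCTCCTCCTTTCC

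Promoters of 41 of the 51 members were found in the RefSeq table, beside 17491 promoters of all genes, each from 250 bases before to 50 after the start. Letters were searched on both strands, and a base may belong to more than one motif. The letters CCGGAAG, a core bound by ETS-family factors, were present in 15 of 41 member promoters (36.6%) and in 11.9% of all promoters. GGGCGG, the core of the SP1 motif, was present in 21 of 41 (51.2%) against 46.3% of all. TGACGTCA, the cyclic AMP response element, was present in 4 of 41 (9.76%: Rpl13, Rpl18, Rpl26 and Rps9) against 2.33%. CACGTG, the E-box read by MYC, was present in 5 of 41 (12.2%) against 7.91%, AAGATGGC, the YY1 letters, in 3 (7.32%) against 3.21%, TATAAA in 3 (7.32%) against 13.3%, and GCATGCGC, the NRF1 letters, in 1 (2.44%, Rpl5) against 3.60%. Messenger RNAs of ribosomal proteins begin with a pyrimidine tract, the TOP motif, through which their translation is controlled. A C followed by at least 4 further pyrimidines on the sense strand, beginning within 10 bases of the start, was present in 24 of 41 members (58.5%) and in 31.1% of all promoters. The run was 17 bases long in Rpl15 and 14 in Rpl13a. The annotated start base itself was C in 14 of 41 (34.1%) against 13.7% of all, and the median GC content was 58.3% against 56.3%.

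H3K4me2 marked every member in every line. A peak lay at the ends of 51 of 51 members in each of the 4 lines, where 65.6% of all genes had one in all 4. The mean cover at the ends was 4.33 kb in 159-1, 4.29 kb in 1014, 4.23 kb in 236L and 3.65 kb in 236R. The least covered members by the control mean were Rpl22, which forms part of the large subunit, with 1.95, 2.35, 2.45 and 2.22 kb in 159-1, 1014, 236L and 236R, and Rps29, of the small subunit, with 2.52, 2.57, 2.95 and 2.74 kb. The most covered was Rps18, of the small subunit, with 8.23, 7.98, 7.73 and 6.87 kb, followed by the large-subunit gene Rpl18 with 7.65, 7.32, 7.35 and 5.79 kb. Rps18 has the ends of B3galt4, Vps52 and Wdr46 within its end regions and Rpl18 that of Fam83e, so their cover is not theirs alone. Large and small subunit genes had like means, from 3.75 to 4.36 kb and from 3.50 to 4.33 kb over the lines. By the authors' fold enrichment, the strongest peak at a member's ends was ranked among all peaks of its own list. The median percentile was 78.3 in 159-1, 81.0 in 1014, 78.6 in 236L and 74.9 in 236R. Percentiles, here and for KDM6A below, were computed for the members alone, so whether other genes rank alike was not tested. Rpl19, of the large subunit, had the highest fold among members in all 4 lines, from 16.8 to 27.4. The annotated start of Rpl19 lies more than 2.5 kb from either gene end, and its end regions hold the end of Cacnb1. This peak may therefore not be at its own start.

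**Figure D1:**
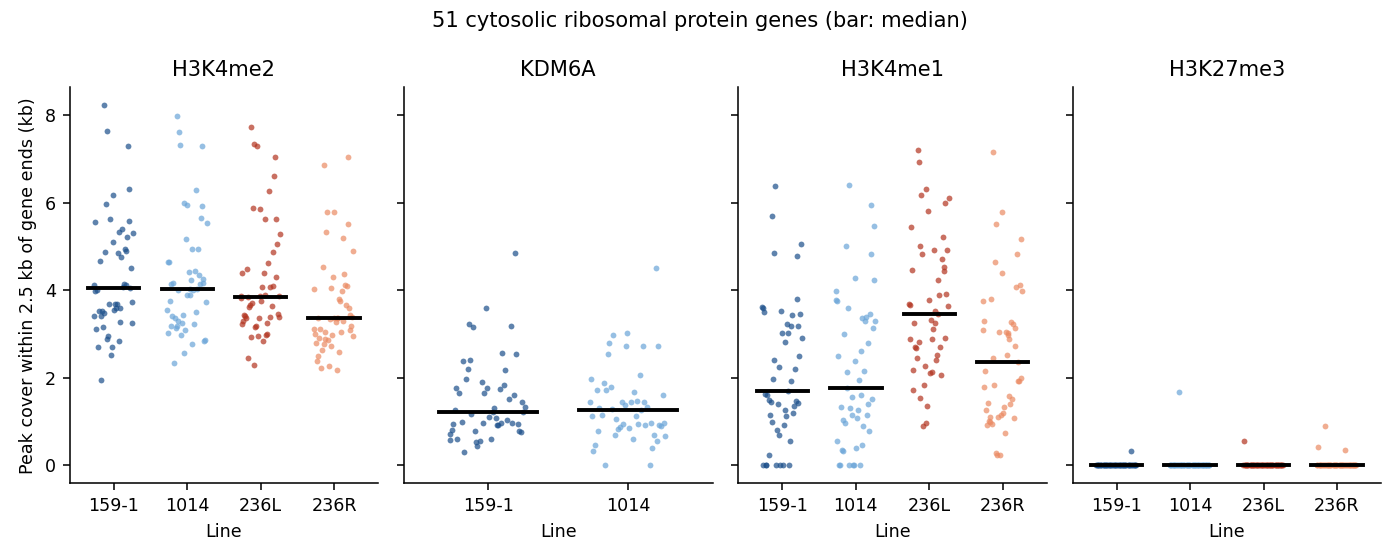
Each point is 1 of the 51 genes; the vertical axis is the length in kb covered by peaks within 2.5 kb of the gene ends, in each line, and the bar is the median over genes. H3K4me2 covers every gene in all 4 lines, and H3K4me1 is at 0 in 7 genes of 159-1 and 6 of 1014 and in none of the mutant lines. H3K27me3 is above 0 in any line in 5 genes only, with at most 1.69 kb, in Rpl38 in 1014.

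H3K4me2 ran over the gene bodies themselves. On average it covered 81.0%, 80.6%, 78.3% and 67.5% of a member's body in 159-1, 1014, 236L and 236R. In the 3662 genes that had H3K4me2 at an end in all 4 lines and were no longer than the longest member, the members included, the same means were 47.0%, 45.3%, 48.0% and 45.8%. Those genes had a median length of 4.95 kb, so they were longer than the members, and the part of length in this gap was not tested. The body was covered from end to end in 18, 16, 14 and 8 members. The lowest values, in cover and in whole bodies, were those of 236R.

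Around the start, the H3K4me2 domain of the 41 members with an annotated start was lopsided. A peak covered the start of 40 of 41 in each line. Counted from the start, the peak reached a median of 2.55 kb downstream in 159-1, 2.6 kb in 1014, 2.4 kb in 236L and 1.95 kb in 236R, and 1.05 to 1.15 kb upstream. In the 11493 genes with H3K4me2 in all 4 lines and an annotated start, the peak that covered the start reached 1.7 to 1.8 kb downstream and 0.90 kb upstream. At 2.5 kb downstream H3K4me2 still covered 61.0% of the members in both control lines, 48.8% in 236L and 17.1% in 236R. The shorter reach was thus seen mainly in 1 of the 2 mutant lines.

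KDM6A lay at nearly all of the same genes in the control lines. It had a peak at the ends of 51 of 51 members in 159-1 and 49 of 51 in 1014, where Rps27 and Rps13 had none. Both lines had one at 49 of 51 members (96.1%), against 51.3% of all genes and 76.3% of genes with H3K4me2 in all 4 lines. The mean cover was 1.51 kb and 1.40 kb in 159-1 and 1014. Rpl13a, which encodes a large-subunit protein also known for translational control of inflammatory messages, had the most, 4.86 and 4.52 kb, and has the end of Flt3l close by. Rpl14, of the large subunit, followed with 3.60 and 2.73 kb. Rps27, the shortest member, had 0.314 kb in 159-1 and 0 kb in 1014, and Rpl34, of the large subunit, 0.432 and 0.825 kb. Large-subunit genes had means of 1.71 and 1.59 kb and small-subunit genes 1.20 and 1.09 kb.

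The KDM6A peaks were narrow and centred just past the start. A peak covered the start of 37 of 41 members in 159-1 (90.2%) and 33 of 41 in 1014 (80.5%), and the share was highest 0.1 kb and 0.2 kb downstream, at 97.6% and 90.2%. In the genes with H3K4me2 in all 4 lines the start was covered in 64.0% and 60.4%. The median width of the strongest KDM6A peak of a member was 1.03 and 1.07 kb, against 3.81 and 3.97 kb for H3K4me2. Of the KDM6A length at member ends, 87.8% in 159-1 and 94.5% in 1014 lay within H3K4me2 of the same label, or 89.6% and 93.9% with the 2 H3K4me2 lists exchanged, whereas 17.2% and 17.7% lay within H3K4me1. Over the genes with H3K4me2 in all 4 lines, 93.3% and 94.8% lay within H3K4me2 of the same label, or 93.1% and 96.2% exchanged. There 26.9% and 23.5% lay within H3K4me1. By fold enrichment the members' strongest KDM6A peaks had median percentiles of 64.3 and 60.3 in their lists. The fold was highest in Rps29, whose value was 8.09 in 159-1 and 7.97 in 1014. The count depends on weak peaks. At a −log10 q of at least 3, 30 of 51 members had KDM6A in both lines, against 30.2% of all genes.

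H3K4me1 was shaped the other way. It covered the start of 0 of 41 members in each of the 4 lines, where it covered the start of 16.2% to 27.2% of the genes with H3K4me2 and 19.3% to 29.9% of those no longer than the longest member. Downstream it rose steeply. The share of members covered was highest 1.8 kb past the start in 159-1 and 1.6 kb in 1014, at 75.6% in both, 1.7 kb past it in 236L at 97.6%, and 1.1 kb past it in 236R at 90.2%. Upstream it reached 26.8% and 22.0% in the control lines and 46.3% and 48.8% in 236L and 236R. The 2930 genes with H3K4me2 and an annotated start that were no longer than the longest member also rose. Their highest upstream shares were 28.7%, 29.5%, 45.3% and 44.3% in 159-1, 1014, 236L and 236R, near those of the members. Their highest downstream shares were 45.3%, 43.6%, 58.5% and 61.6%. The inner edge lay closer to the start in the mutant lines: 1 kb downstream, H3K4me1 covered 29.3% and 7.32% of the members in 159-1 and 1014, 43.9% in 236L and 78.0% in 236R. At 2.5 kb downstream 236L alone was higher, with 87.8% against 46.3%, 46.3% and, in 236R, 41.5%.

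**Figure D2:**
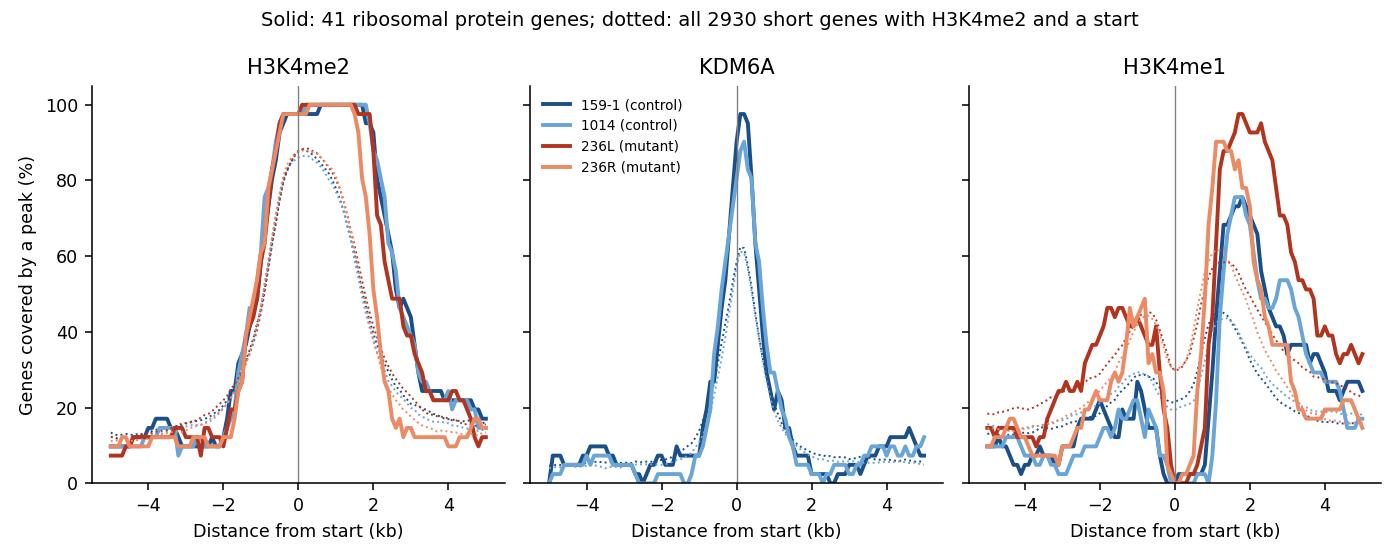
The share of genes covered by a peak (%) is drawn against the distance from the RefSeq start in kb, downstream positive, for H3K4me2, KDM6A and H3K4me1; solid lines are the 41 ribosomal protein genes with an annotated start and dotted lines the 2930 genes with H3K4me2 in all 4 lines that are no longer than the longest of them, the 41 included. KDM6A peaks just past the start, H3K4me1 is at 0% there in all 4 lines and rises downstream, and in 236R the H3K4me2 domain ends earlier and H3K4me1 begins closer to the start.

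H3K4me1 covered more of the members in the mutant lines, on average, than in the control lines. It was present at the ends of 44 members in 159-1, 45 in 1014, 51 in 236L and 51 in 236R. The mean cover at the ends was 2.13, 2.19, 3.65 and 2.54 kb in these lines, that is 2.16 ± 0.0406 kb in the control and 3.09 ± 0.783 kb in the mutant lines (SD, n = 2). The line means did not overlap, and the exact permutation p was 0.333, the smallest this design can give. Line 236L was above both control lines in 43 of 51 members and below both in 4. Line 236R was above both in 27 and below both in 15, so the excess was broad in 236L and mixed in 236R. The gene body was covered by H3K4me1 for 34.2%, 31.99%, 53.5% and 43.8% of its length on average, and the share of H3K4me2 length at the ends that also lay in H3K4me1 was 38.6%, 35.9%, 56.5% and 54.3%. With the 2 H3K4me2 lists of the control lines exchanged, the first and second of these shares were 39.2%, against H3K4me1 of 159-1, and 36.5%, against that of 1014. Other genes showed a like shift. The shares over all genes with H3K4me2 at an end in all 4 lines, by label, were 37.2%, 33.0%, 51.4% and 50.0%. In the short genes with H3K4me2, H3K4me1 covered 27.8%, 27.5%, 39.5% and 36.2% of the body on average.

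At the ends, 10 of 51 members (19.6%) were called higher for H3K4me1, where 7.36% of all genes were, and 0 were called lower, where 2.71% were. The share among genes with H3K4me2 in all 4 lines was 10.5%, and among those no longer than the longest member 15.3%, so much of the distance to all genes is shared by short genes with H3K4me2. By any amount, both mutant lines were above both control lines in 26 members (50.98%), against 30.2% of all genes and 47.7% of the short genes with H3K4me2, and below in 3. The median difference of the members, mutant minus control, was 1.02 kb, against 0.21 kb over all genes and 0.76 kb over the short genes with H3K4me2. Without 236L the count was 13 higher (25.5%) and 5 lower (9.80%), where 13.6% and 4.62% of all genes were, and the mean difference of 0.930 kb fell to 0.376 kb. Without 236R it was 30 higher (58.8%) and 1 lower (1.96%), where 26.1% and 8.64% of all genes were. The part in these values of what sets 236L apart at the macrophage markers was not tested.

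Among the members called higher, Rpl4, of the large subunit, had the widest separation. Its H3K4me1 at the ends was 1.47 kb in 159-1 and 0.785 kb in 1014, and 5.23 kb in 236L and 4.09 kb in 236R. Snapc5 and Zwilch have ends in the same regions. Rpl26, whose protein is also known to bind the p53 message, had 0 and 0.565 kb in the controls and 2.89 and 3.31 kb in the mutants. Rpl14 had 3.52 and 4.29 kb against 5.81 and 5.79 kb, and was thus well covered in both genotypes. Rpl37, of the large subunit, had 1.12 and 0 kb against 3.12 and 2.52 kb. Rps6, the small-subunit protein phosphorylated by S6 kinases downstream of mTOR, had 0 and 0.464 kb against 2.41 and 1.57 kb. Rps16, of the small subunit, had 1.70 and 1.61 kb against 3.53 and 3.03 kb. Rps18, the member with the second most H3K4me1 in the control lines, had 5.69 and 5.02 kb against 6.93 and 7.17 kb. In each of these 7 genes both mutant lines lay above both control lines, and 236R was the higher mutant line in Rpl26 and Rps18. The smallest separations called were 1.11 kb in Rps6 and 1.12 kb in Rpl17, where the values were 1.93 and 2.16 kb against 3.46 and 3.28 kb. The next member, Rps20, was not called at 0.914 kb. Among peaks of a −log10 q of at least 3 the separation of Rpl26 was 0.835 kb, under the limit, and within 1 kb of the ends only Rpl4 of the 10 stayed past it.

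In 4 members, Rpl5, Rpl15, Rps20 and Rps23, there was no H3K4me1 at the ends in either control line and some in both mutant lines. This pattern was found in 7.84% of the members, 5.51% of all genes, 7.19% of the genes with H3K4me2 in all 4 lines and 4.78% of the short ones among them. Rpl5, whose product binds the 5S RNA and, with RPL11, the p53 regulator MDM2, had 1.35 kb in 236L and 1.14 kb in 236R. Rpl15, of the large subunit, had 1.73 and 1.26 kb. Rps20 had 2.18 and 0.914 kb, and Rps23, which lies in the decoding centre, 0.902 and 0.291 kb. Rpl5 and Rpl15 were also called higher, but at a −log10 q of at least 3 their separation was 0 kb. H3K4me2 was present at the ends of all 4 in the control lines, and KDM6A too. No other protein-coding gene lies in the windows of Rps20 and Rps23.

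**Figure D3:**
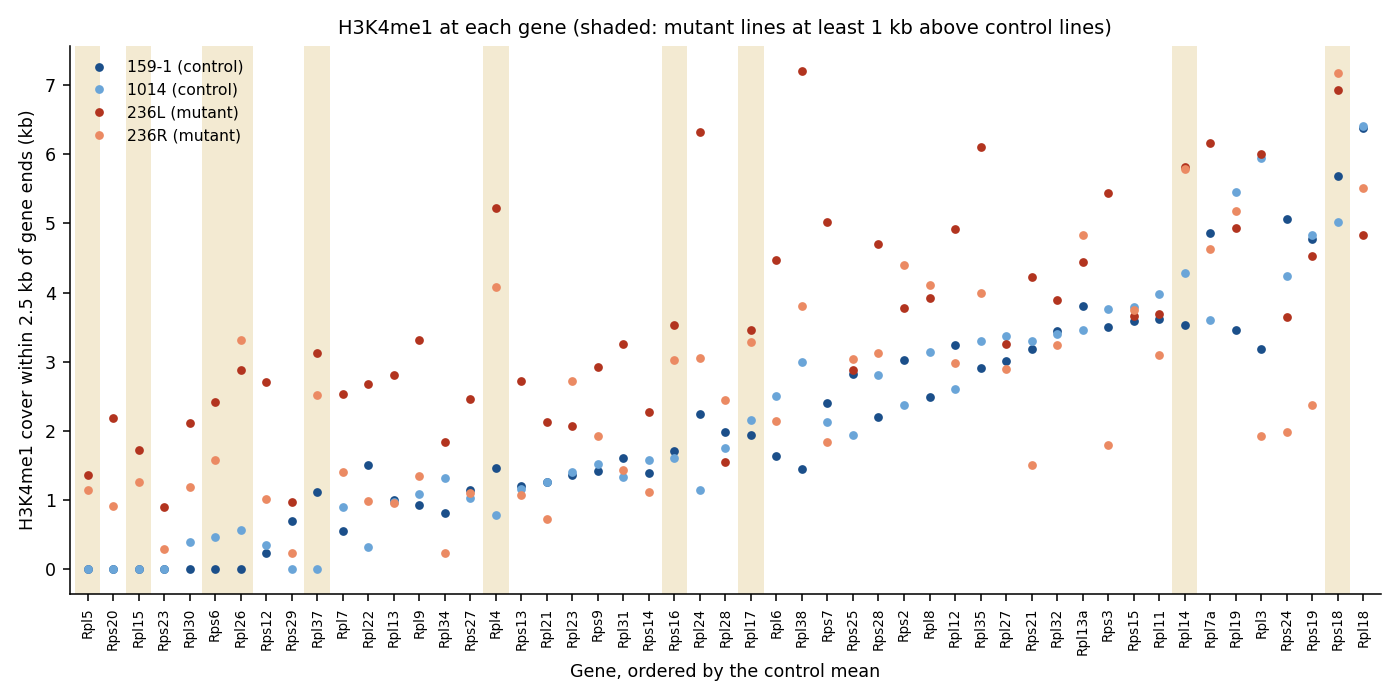
Each column is 1 gene, ordered by the control mean; the vertical axis is the H3K4me1 cover within 2.5 kb of its ends in kb, and each point is 1 line. Shaded genes have both mutant lines at least 1 kb above both control lines, and 236L is the highest line in most columns. The genes called reach up to Rps18, with a control mean of 5.35 kb. Many lie at the low end: Rpl5, Rpl15, Rps6, Rpl26 and Rpl37 had control means from 0 to 0.56 kb.

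In the wider windows the picture was less one-sided. For H3K4me1, 5 of 51 members (9.80%) were called higher, where 5.30% of all genes were, and 1 lower, where 7.44% were. Among the short genes with H3K4me2, 10.6% were called higher and 3.71% lower, so the members called higher were no more frequent than there. Rpl4, Rpl14, Rpl26, Rps18 and Rpl17 were called higher, all of which were also called at their ends. At a −log10 q of at least 3 the separations of Rpl4, Rpl17 and Rpl26 fell short of the limit, at 1.10, 1.52 and 0 kb. Among these 5, the window of Rps18 showed the widest separation of H3K4me1, from 6.11 and 5.66 kb in the controls to 10.9 and 9.08 kb in the mutants. Rpl18 was called lower, with 15.9 and 17.5 kb against 11.9 and 11.1 kb. Its window holds Dbp, Fam83e, Spaca4, Sphk2 and Sult2b1, and at its own ends the values were 6.38, 6.41, 4.84 and 5.51 kb. The window means were 4.25, 4.60, 6.47 and 4.67 kb, so 236R exceeded 1014 by 0.0714 kb (two-sided exact permutation p = 0.333, n = 2 lines a group).

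H3K4me2 was slightly lower at the members in the mutant lines, mostly in 236R. At the ends, 0 members were called higher, where 1.64% of all genes were, and 1 lower (1.96%), where 1.78% were. In the windows 0 were called higher, where 1.36% of all genes were, and 2 lower (3.92%), where 6.37% were. By any amount, 20 of 51 members (39.2%) were lower at the ends in both mutant lines, against 17.1% of all genes and 23.1% of the short genes with H3K4me2. In 3 members (5.88%) both mutant lines were higher, against 15.3% of all genes and 21.5% of the short genes. Line 236R was below both control lines in 42 of 51 members, whereas 236L was below both in 21 and above both in 17. The mean at the ends was 4.31 ± 0.0324 kb in the control and 3.94 ± 0.411 kb in the mutant lines (SD, n = 2; two-sided exact permutation p = 0.333). Without 236R the mean difference of -0.368 kb shrank to -0.0776 kb, and without 236L it was -0.659 kb.

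The called members were Rps19 at the ends and Rpl35 and Rps7 in the windows. Rps19, a small-subunit gene mutated in Diamond-Blackfan anaemia, had 6.31 and 5.92 kb of H3K4me2 in the controls and 4.32 and 3.60 kb in the mutants. Rpl35, of the large subunit, had 15.1 and 14.3 kb against 11.6 and 10.6 kb in a window that also holds Arpc5l and Wdr38. Rps7, of the small subunit, had 6.46 and 6.08 kb against 3.93 and 3.97 kb in a window that also holds Colec11. In all 3 the mutant lines did not overlap the control lines.

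H3K27me3 was nearly absent from the members. It covered 0% of every member's body in all 4 lines, against means of 7.23%, 10.8%, 8.12% and 6.06% over the short genes with H3K4me2. It touched the ends of 5 of 51 members (9.80%) in any line, where 30.0% of all genes and 30.5% of genes with H3K4me2 had it. Rpl38, of the large subunit, had the most, 1.69 kb in 1014 and 0.889 kb in 236R. Rps15 had 0.562 kb in 236L only, Rpl26 0.408 kb and Rpl17 0.34 kb in 236R only, and Rps19 0.320 kb in 159-1 only. None of the 5 had it in both lines of a genotype.

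At the ends 0 members were called for H3K27me3 in either direction, where 0.375% of all genes were called higher and 4.75% lower. In the windows 1 was called higher, where 0.425% of all genes were, and 1 lower, where 6.43% were. Rpl22 was the one called higher, with 0 and 2.25 kb in 159-1 and 1014 against 4.72 and 4.33 kb in 236L and 236R. Its window also holds Chd5 and Rnf207, and none of this cover touched its own body or ends. Rps19 was the one called lower, with 3.55 and 3.15 kb against 0 and 0.867 kb, in a window that also holds Cd79a, a B-cell gene, and Dmrtc2. Neither separation remained at a −log10 q of at least 3, where both were 0 kb.

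Other genes of protein synthesis showed H3K4me1 calls of like frequency. At the ends 4 of 26 further autosomal cytosolic ribosomal protein genes were called higher (15.4%), 12 of 79 mitochondrial ribosomal protein genes (15.2%), 5 of 32 translation factors (15.6%) and 8 of 38 ribosome biogenesis genes (21.1%), with 1 lower among the mitochondrial genes and 0 lower in the others. Among the cytosolic genes outside the 51, Rplp0, of the ribosomal stalk, had 2.82 and 3.10 kb in the controls and 6.58 and 5.61 kb in the mutants, and Fau, which encodes a fusion with a small-subunit protein, 0 and 1.57 kb versus 3.97 and 4.59 kb. Mitochondrial ribosomal protein genes had less H3K4me2 at their ends than the members, with means from 3.07 to 3.15 kb over the lines. The members had means of 4.31 kb in the control and 3.94 kb in the mutant lines. The further cytosolic genes had more, 4.81 and 4.18 kb. Translation factors had 4.16 and 4.22 kb, and ribosome biogenesis genes 3.66 and 3.58 kb. For H3K4me2 by any amount, 13 of 26 further cytosolic genes were lower at the ends in both mutant lines (50.0%), against 16 of 79 mitochondrial genes (20.3%), 6 of 32 translation factors (18.8%) and 8 of 38 biogenesis genes (21.1%).

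**Figure D4:**
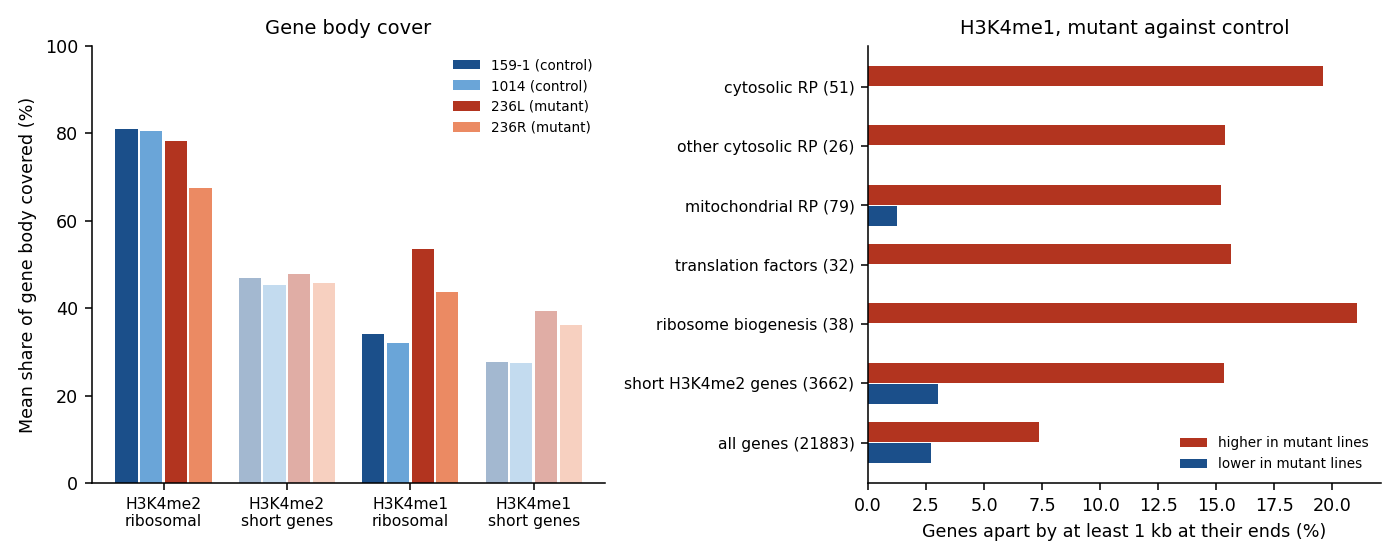
Left, the mean share of the gene body covered (%) by H3K4me2 and H3K4me1 in each line, for the 51 ribosomal protein genes (full colour) and the 3662 genes with H3K4me2 that are no longer than the longest of them (pale); right, the share of genes (%) of each list whose mutant lines lie at least 1 kb above or below the control lines for H3K4me1 at the ends. H3K4me2 covers 67.5% to 81.0% of a ribosomal protein gene body against 45.3% to 48.0% in the short genes, and the shares called higher lie between 15.2% and 21.1% in the 51 genes and the 4 other lists of protein synthesis drawn.

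The X-linked genes Rpl10, Rpl36a, Rpl39 and Rps4x were kept apart from the autosomal members. All 4 had H3K4me2 in every line. KDM6A was found at 1 of them in 159-1 and 3 in 1014. H3K4me1 was found at 0 and 1 of them in the control lines and at 4 of 4 in both mutant lines: Rps4x had 0 and 0 kb against 2.23 and 1.36 kb, and Rpl10 0 and 0.238 kb against 2.67 and 1.52 kb. The labels do not give the sex of the source animals, and genotype and the number of X chromosomes cannot be told apart here. Of 6 paralogs, the testis-expressed Rpl10l and Rpl39l had no H3K4me2 at their ends in any line, whereas Rpl3l, Rpl7l1, Rpl22l1 and Rps27l had it in all 4. Rpl7l1 had the most, from 5.43 to 6.73 kb, and Rps27l the least in a single line, 1.76 kb in 159-1.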

How the data were processed

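ChIP-seq was analysed from 14 deposited broad peak lists; 10 input samples were not used here. Per the submitters' processing notes the tools were Bowtie2 2.4.2 and MACS3 3.0.0a7 on mm10. The calling threshold, the control tracks and any removal of duplicates are, in the sources used here, not given. The authors' lists hold each peak's fold enrichment (a ratio), its −log10 p and −log10 q, and a score. The deposited lists hold no peak under a −log10 q of 1.01. The 337 peaks on contigs were left out, and overlapping peaks were merged. Covered kb were then summed per gene over the RefSeq GRCm38.p6 gene table with Python 3.11.15, numpy 2.4.6 and pandas 2.3.3, and the counting was tested on simulated peaks. Cover grows with peak width and with the length of a list, and is no measure of signal height. Replicates are lines, 2 a group, compared by non-overlap and by exact permutation tests. The members, the gene lists and the rules were chosen with earlier results of these data known. The comparison with short genes, body cover, the gained pattern and the motif members shown were chosen after these values were seen. Genes named are those called, the 2 most and 2 least covered per mark, those with H3K27me3 or lacking KDM6A, and related genes. Alternatives were other windows, limits, a −log10 q of at least 3, lists cut to equal length and each line left out. H3K4me1 has its own input set with both genotypes in it, and overlaps between marks set lists of different sets side by side.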

Additional observations from a re-analysis of the deposited data

How the results depend on the processing

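Counts are of the 51 members called, with the share of all genes called in brackets. In windows of 50 kb on each side, 9 were higher (12.8%) and 7 lower (10.9%) for H3K4me1, 1 (3.14%) and 9 (12.4%) for H3K4me2, and 0 (1.09%) and 2 (12.3%) for H3K27me3. In the gene body alone, and with a limit of 5 kb, 0 were called for any mark in either direction (at most 5.71% and 3.66%). The gene body alone kept the limit of 2 kb. With bodies from 0.982 kb and a median of 3.27 kb, members can hardly reach it, so that count says little. Separated by any amount, window counts were 31 higher (25.1%) and 5 lower (14.7%) for H3K4me1 and 1 (13.9%) and 21 (25.4%) for H3K4me2, and end counts 26 (30.2%) and 3 (8.28%) for H3K4me1 and 3 (15.3%) and 20 (17.1%) for H3K4me2. Within 1 kb of the ends, 1 member was higher (1.65%) and 1 lower (1.12%) for H3K4me1 and 0 lower (0.617%) for H3K4me2. With a limit of 2 kb at the ends, 2 were higher (1.29%) for H3K4me1 and 0 lower (0.430%) for H3K4me2. At a −log10 q of at least 3, 14 were higher (10.2%) and 1 lower (2.25%) at the ends for H3K4me1, and 0 were called in the windows for H3K27me3 (0.0457% higher, 2.67% lower). Cut to equal length, the lists gave 14 higher (10.03%) and 1 lower (2.21%) at the ends and 2 lower (5.93%) in the windows for H3K4me1, 1 lower (3.60%) in the windows for H3K4me2, and 0 in the windows for H3K27me3 (0.90% higher, 1.37% lower). KDM6A in both control lines fell from 49 members to 30 (30.2%) at the stricter q and to 21 (24.8%) where at least 1 kb had to be covered. H3K27me3 at an end fell from 5 members to 0 (13.2%) and 1 (22.1%) under the same limits.

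Leaving out each line in turn loosens the rule, as fewer lines must agree. For H3K4me1, 6 to 20 members were then higher (7.86% to 29.7%) and 1 to 6 lower (8.72% to 15.2%) in the windows, and 13 to 30 higher (11.1% to 26.1%) and 0 to 5 lower (4.06% to 8.64%) at the ends. For H3K4me2 it was 0 to 2 (2.09% to 10.3%) and 2 to 7 (9.18% to 11.5%) in the windows, and 0 to 1 (2.77% to 8.62%) and 3 to 8 (2.89% to 5.26%) at the ends. For H3K27me3, 1 to 3 were higher in the windows (0.471% to 4.02%), and 3 to 5 had the mark at an end (24.7% to 29.2%). The mean H3K27me3 difference, 0.072 kb in the windows and 0.0019 kb at the ends, turned to -0.0508 and -0.0115 kb without 159-1 and to -0.0484 and -0.00864 kb without 236R, and was at most 0.195 and 0.0153 kb without 1014. The gained H3K4me1 pattern was seen in 4 to 9 members over alternatives chosen after seeing the data. Of 21 separations called, 13 stayed past the limit at the stricter q and 17 in lists of equal length, where the windows of Rpl26 (H3K4me1), Rps7 (H3K4me2), Rpl22 and Rps19 (both H3K27me3) fell short. Of the 10 in windows, 5 stayed in windows of 50 kb and 0 in the gene body alone, where short bodies leave little room for the limit. Of the 11 at ends 1 stayed within 1 kb. No paired analysis was possible because the replicate numbers only name lines in accession order. Depth is unknown, so a peak that is missing from a list may lie under its threshold.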
